A study of Caenorhabditis elegans with 4 samples.

Results

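Chromosome II of early Caenorhabditis elegans embryos carried 673 RNA polymerase II domains that were found in both replicates of a chromatin immunoprecipitation and sequencing (ChIP-seq) experiment. A domain here is a replicate 1 peak of chromosome II that shares at least 1 bp with a replicate 2 peak, so the domains were chosen by the peak positions in the 2 replicates. They made up 673 of the 749 replicate 1 peaks of the chromosome and 673 of the 3852 such domains on the 6 nuclear chromosomes. The groups were 2 immunoprecipitated samples and 2 samples of input DNA, and the inputs gave no values of their own here. Every sample came from whole embryos of the wild-type N2 strain at the early embryo stage, harvested by bleaching gravid adults of a population with males and hermaphrodites kept at 20 °C. Whether the replicates were separate embryo preparations is not stated in the labels. Because whole embryos were used, neighbouring domains may come from different cells. The antibody, 8WG16, is a mouse monoclonal raised against polymerase from wheat germ. It recognises primarily the form of the enzyme whose C-terminal domain, the repeated tail of the largest subunit, is unphosphorylated.

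RNA polymerase II is the enzyme that makes messenger RNA. It binds promoters with its tail unphosphorylated, and kinases then modify the tail as it starts and elongates. Worm genes are compact, and many lie in operons, in which a shared promoter gives a transcript that is cut into separate messages by trans-splicing. The chromosomes of this species are holocentric, with spindle attachment along their whole length in place of a single centromere. In the early embryo, transcription starts up in somatic cells while the germline precursors are kept largely silent.

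Positions refer to the WS220 build of WormBase. Chromosome II was taken to end at position 15279380, the last base listed in any of the 3 peak lists. No chromosome sizes were at hand to check this end, which may lie past that of the chromosome in this build. Depth of sequencing is unknown, since the lists give positions and no read counts. Scores of the peaks were not used. Widths and spacings are measurements on the lists that chose the domains, so they are given as descriptions without tests, and 2 replicates of a single group allow no test across samples.

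The domains covered 2.27 Mb, or 14.9% of the chromosome. They were found at 44.0 per Mb. All replicate 1 peaks of the chromosome covered 16.1% of it, all 938 replicate 2 peaks covered 21.6%, and the 2979 peaks of the series-wide list, which carries the title of the whole series, covered 14.7%. A replicate 2 counterpart was found for 673 of 749 replicate 1 peaks (89.9%, exact 95% binomial interval 87.5 to 91.9%), where the share over the 6 nuclear chromosomes was 88.7%. In the other direction, 612 of 938 replicate 2 peaks met a replicate 1 peak (65.2%, 62.1 to 68.3%), where the share over the 6 chromosomes was 61.4%. These intervals cover counting error only and treat peaks as independent. They are not independent, since 204 domains shared a replicate 2 peak with another domain. The shares over the 6 chromosomes include chromosome II, so the intervals are no test against them. The overlap chose the domains, so nothing is read from these shares.

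Few domains stood near the 1 bp limit. The smallest overlaps were 73 bp for the domain from 4705286 to 4712481 (7196 bp wide), 118 bp for that from 9924331 to 9925936 and 132 bp for that from 4339615 to 4340667. Just outside the limit, replicate 1 peaks from 11527440 to 11529052, from 1406834 to 1407863 and from 2460986 to 2463784 missed the nearest replicate 2 peak by 25, 72 and 110 bases. Most domains lay far inside the limit. Replicate 2 peaks covered 346 domains wholly (51.4%) and 658 by at least 50% (97.8%). These shares look at the domain alone, and the replicate 2 peak was often the wider. When each peak had to cover at least 50% of the other, 487 domains remained, and they covered 11.8% of the chromosome.

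The domains were a few kilobases wide. The median width was 2432 bp, with an interquartile range of 1491 to 4217 bp, a lowest value of 804 bp and a highest of 25199 bp. Bases were unevenly shared among them. The 171 domains under 1500 bp (25.4% of domains) held 9.29% of the domain bases, and the 26 domains over 10 kb (3.86%) held 15.0%. Of the domain bases, 50% lay in the 152 widest domains (22.6%), each of at least 4435 bp.

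The broadest domain lay in the right part of the chromosome and had nearly the same borders in both replicates. Replicate 1 placed it from 11613312 to 11638510 (25199 bp), and replicate 2 placed it from 11613487 to 11638602 (25116 bp). Second in width was a domain from 2994634 to 3012530 (17897 bp), for which the replicate 2 peak ran from 2994465 to 3012477 (18013 bp). Rank 3 was held by 9294063 to 9309346 (15284 bp), where replicate 2 had 9292670 to 9309505 (16836 bp). Rank 4 was held by 13815444 to 13830052 (14609 bp), where replicate 2 had 13815235 to 13830087 (14853 bp). These 4 each met a single replicate 2 peak. The domain of rank 5, from 12786561 to 12800579 (14019 bp), was divided into 2 replicate 2 peaks that together ran from 12787210 to 12801907. Of all 26 domains over 10 kb, 17 met 1 replicate 2 peak, 7 met 2 and 2 met 3. A replicate 2 peak over 10 kb was met by 17 of the 26, and also by 51 domains of 10 kb or less. These are counts of domains, and several can share a peak: 38 replicate 2 peaks over 10 kb met a domain. The lists thus differed in which regions passed 10 kb.

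The 3 narrowest domains were strips of wider replicate 2 peaks. The narrowest ran from 6539415 to 6540218 (804 bp), inside a replicate 2 peak of 3709 bp. The next ran from 14345942 to 14346868 (927 bp), inside a replicate 2 peak of 4464 bp. The last of the 3 narrowest ran from 4602911 to 4603911 (1001 bp), inside a replicate 2 peak of 1788 bp.

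**Figure D1:**
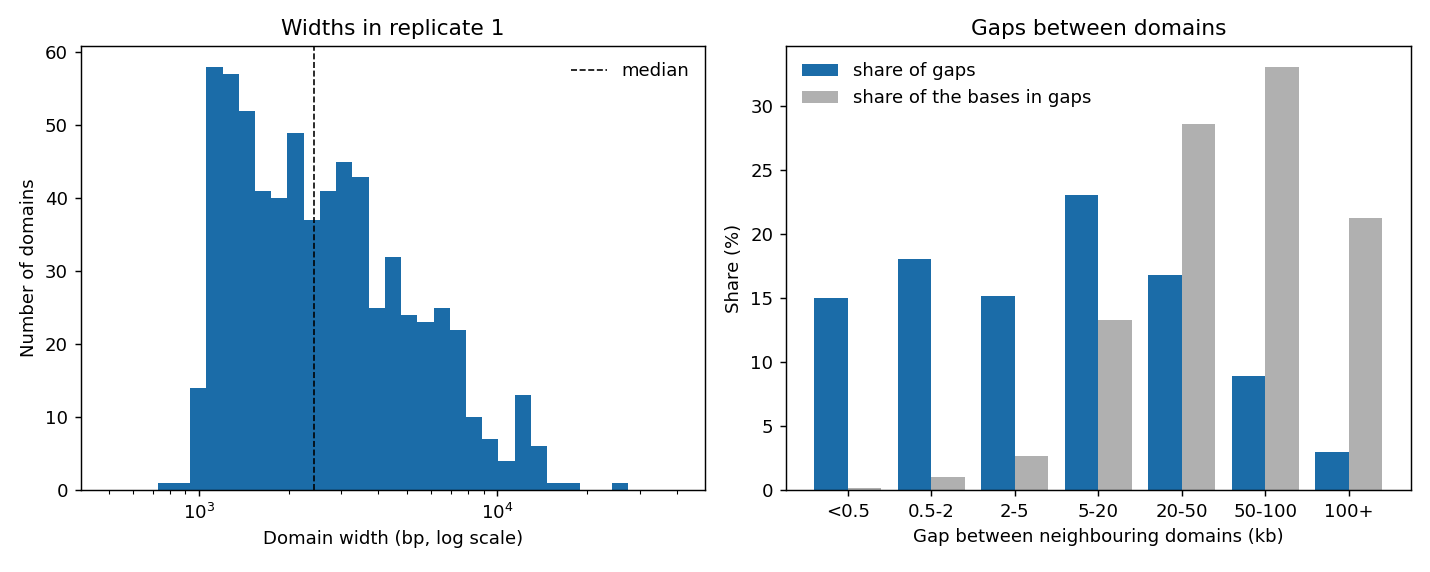
Left: number of domains by width in replicate 1 (bp, log scale), with the median of 2432 bp as a dashed line. Right: share of the gaps between neighbouring domains (blue bars) and share of the bases in those gaps (grey bars) by gap length in kb. Gaps under 2 kb are frequent and hold few bases, while gaps of 50 kb and over are few and hold 54.3% of the gap bases.

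Borders differed between the replicates by less than 500 bp in most cases, and replicate 2 tended to be the wider. A 1-to-1 pairing, in which a domain met 1 replicate 2 peak and that peak met no other domain, held for 444 domains (66.0%). Over their 888 borders the median distance between the replicates was 178 bp; 33.9% of borders lay within 100 bp and 74.5% within 500 bp. The median position of the left border, replicate 1 minus replicate 2, was 92 bp, and that of the right border was -93 bp. Each side taken alone, left borders thus tended to lie further right in replicate 1, and right borders further left. The median width in these pairs was 2235.5 bp in replicate 1 and 2705.5 bp in replicate 2, and 326 of the 444 pairs (73.4%) were wider in replicate 2. Replicate 1 lay wholly inside replicate 2 in 213 pairs, and the reverse was seen in 41. Across the 444 pairs, Spearman's rho of the widths was 0.77, a description of 2 libraries over regions of a single chromosome that the rule itself made overlap.

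The pair that differed most was the domain from 9058364 to 9065813, 7450 bp in replicate 1, which lay at the right end of a replicate 2 peak from 9038304 to 9066618 (28315 bp, the widest of that list on this chromosome). Its left borders were 20060 bp apart. This domain was named after its values were seen.

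**Figure D2:**
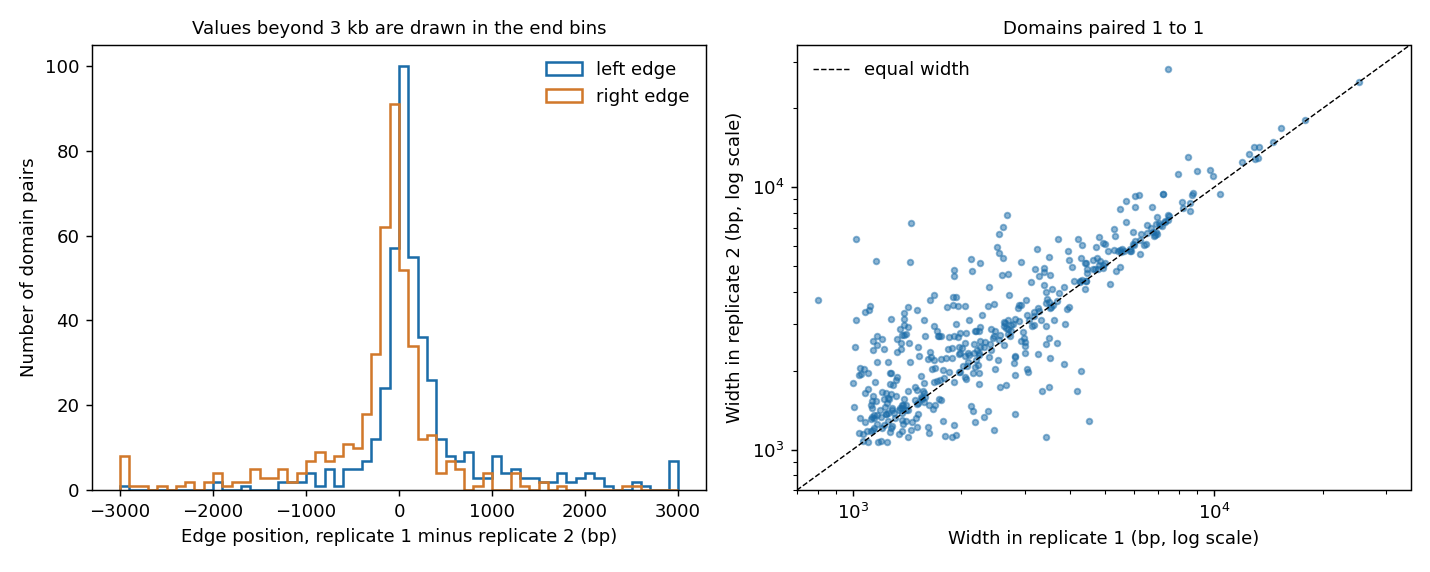
Left: number of the 444 domains paired 1 to 1 by border position, replicate 1 minus replicate 2 (bp), for left borders (blue) and right borders (orange), in bins of 100 bp. Right: width in replicate 2 against width in replicate 1 (bp, both axes log scale), a point for each pair, with a dashed line at equal width. Most left borders lie right of 0 and most right borders left of 0, and more points lie above the line than below it.

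The remaining domains were cut differently in the 2 lists. Of the replicate 2 peaks, 79 held 2 domains and 16 held 3, and 204 domains shared a replicate 2 peak with another domain. In the other direction 44 domains met 2 replicate 2 peaks and 3 met 3. The 16 replicate 2 peaks with 3 domains tie in rank, and the first 3 along the chromosome are given. The first ran from 454109 to 465246 (11138 bp) and held domains separated by gaps of 38 and 325 bp. Another, from 2235306 to 2246250 (10945 bp), had gaps of 119 and 201 bp between its domains, and that from 4294895 to 4302125 (7231 bp) had gaps of 54 and 703 bp. Wider ones were among the 16, such as that from 4569541 to 4592189 (22649 bp), named after its values were seen. The domains that met 3 replicate 2 peaks ran from 5715886 to 5719614 (3729 bp), from 10831322 to 10842892 (11571 bp) and from 10929742 to 10942686 (12945 bp). Replicate 2 peaks covered 92.7% of the domain from 5715886, 78.2% of that from 10831322 and 56.4% of that from 10929742. Neither list was the finer of the 2 throughout.

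Spacing between neighbouring domains varied widely. The gap from the end of a domain to the start of the next had a median of 5768.5 bp, an interquartile range of 1237 to 25365.5 bp, and a range of 7 to 192921 bp. The mean gap, 19316 bp, lay far above the median. With a stricter rule, by which each peak must cover at least 50% of the other, the median gap was 11578.5 bp, and in the full lists it was 4824.5 bp for replicate 1 and 3789 bp for replicate 2. Short gaps were often no gaps in replicate 2. Of the 101 gaps under 500 bp, 72 (71.3%) were crossed by a single replicate 2 peak, as were 33 of the 121 gaps of 500 bp to 2 kb (27.3%) and 6 of the 102 gaps of 2 to 5 kb (5.88%). No longer gap was crossed, and the widest crossed gap was 3410 bp.

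Long gaps were few but made up most of the domain-free sequence. There were 80 gaps of 50 kb and over (11.9% of the 672 gaps), and they held 54.3% of the gap bases. The longest ran from 14500625 to 14693545 (192921 bp). It held 1 peak of replicate 1 and 7 of replicate 2, none of which overlapped between the replicates. Next came a gap from 1864641 to 2051517 (186877 bp) with 5 replicate 1 peaks and no replicate 2 peak. The gap from 12485047 to 12670614 (185568 bp) was free of peaks in both replicates. That from 5925811 to 6099272 (173462 bp) held 7 replicate 2 peaks and no replicate 1 peak. The gap from 3124817 to 3290289 (165473 bp) was again free of peaks in both replicates. So 2 of the 5 longest gaps were empty in each replicate list, and the other 3 held peaks that lacked a counterpart.

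The series-wide list placed small peaks in all 5 of the longest gaps. It had 4 peaks in each of the gaps that both replicates left empty and 14 in each of the other 3, and the widest of them was 981 bp. The longest stretch without a peak of any list was 87532 bp in the gap from 12485047, 82925 bp in that from 3124817 and 81633 bp in that from 1864641. All 20 gaps of 100 kb and over held at least 1 series-wide peak, as did 55 of the 60 gaps of 50 to 100 kb. A replicate 2 peak without a counterpart lay in 14 of these 20 and in 42 of these 60. Over the whole chromosome 288 of the 672 gaps (42.9%) held no further peak of any list, and the longest of those was 82083 bp. A replicate 2 peak that crosses a gap was not counted as held by it, so these gaps are not all free of replicate 2 peaks.

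Runs of domains were described with a gap limit. A cluster was taken as 3 or more domains with every gap below 5 kb. This limit lies near the median gap of 5768.5 bp, so runs are frequent by definition. Whether they exceed those of the same gaps in another order was not tested. There were 83 clusters, which held 332 domains (49.3%) and 45.4% of the domain bases and spanned 9.23% of the chromosome. Among all replicate 1 peaks of the chromosome, 51.8% were in clusters. Most were small: 40 had 3 domains, 26 had 4 and 17 had 5 or more. The median span was 15765 bp, and the median share of a span under domains was 70.4%. The number depends on the definition. With gaps below 2 kb there were 47 clusters, with 50% overlap of each peak on the other there were 36, and among all replicate 2 peaks there were 136.

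The largest cluster lay near the left end of the chromosome, from 415099 to 476624, and held 13 domains in 61526 bp. Its domains were between 1096 and 9961 bp wide (median 2698 bp), and the gaps between them were between 38 and 3694 bp. Replicate 2 divided the same stretch into 12 peaks and the series-wide list into 43. To its right followed a gap of 51593 bp. The next cluster, from 13871230 to 13899306, held 9 domains in 28077 bp, with a median width of 1691 bp and a widest domain of 2472 bp, and met 9 replicate 2 peaks and 18 series-wide peaks. Domains covered 76.4% of the cluster of 13 and 58.0% of the cluster of 9.

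A further 3 clusters held 7 domains each. The cluster from 231238 to 256662 met 7 replicate 2 peaks and 25 series-wide peaks. The cluster from 2122471 to 2149714 met only 4 replicate 2 peaks, which covered 91.0% of it. The cluster from 5370974 to 5395931 met 7 replicate 2 peaks and 12 series-wide peaks. Over all 83 cluster spans, replicate 2 had as many peaks as there were domains in 36, fewer in 36 and more in 11, and in 6 clusters a single replicate 2 peak met every domain.

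**Figure D3:**
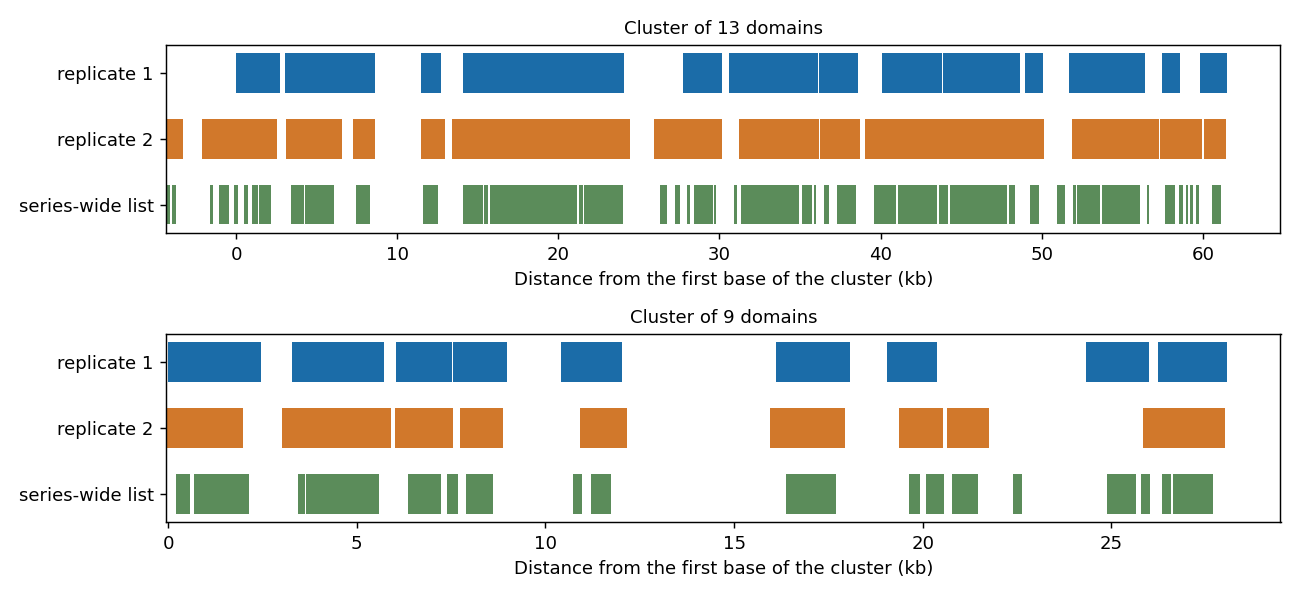
Peaks of replicate 1 (blue), replicate 2 (orange) and the series-wide list (green) in the cluster of 13 domains (top) and the cluster of 9 domains (bottom), by distance in kb from the first base of the cluster. The span with 13 domains met 12 replicate 2 peaks and 43 series-wide peaks, and the span with 9 domains met 9 and 18, counting peaks that lie between domains.

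In replicate 1 the domains in clusters had a lower median width than the others. In replicate 1 the median width was 2234.5 bp for the 332 domains in clusters and 2672 bp for the 341 others, and the mean number of series-wide peaks was 2.37 and 2.40. The summed bases of the replicate 2 peaks that a domain met had medians of 4227 bp for domains in clusters and 3709 bp for the others. In these sums a replicate 2 peak that joins several domains is counted in full for each of them. The sums are therefore not widths and give no order of widths in replicate 2. The 51 domains with at least 20 kb free on each side (7.58%) had a median width of 2814 bp and reached 17897 bp. Spearman's rho of the widths of neighbouring domains was -0.00016, and that of neighbouring gaps was 0.03. Both are descriptions along a single chromosome, without a test.

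The chromosome was divided into 61 complete windows of 250 kb, and domains were counted in them by midpoint. Windows held between 3 and 22 domains with a median of 11 (mean 10.98, SD 4.59 over windows), and every window held some. The variance of the counts was 1.92 times their mean. Domain bases took between 3.61 and 31.8% of a window, with a median of 14.2%. The 19 windows with 14 or more domains held 46.1% of all domains, and the 13 windows with 6 or fewer held 9.81%.

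The fullest window, from 5500001 to 5750000, held 22 domains that covered 28.7% of it, and 24 replicate 2 peaks. The window from 250001 to 500000, which contains the largest cluster, held 20 domains (27.6% of bases, 27 replicate 2 peaks), and 18 of its 20 domains were in clusters. The window from 13750001 to 14000000 held 20 domains (22.7%, 21 replicate 2 peaks), and the adjoining one from 14000001 to 14250000 held 19 (23.0%, 20 replicate 2 peaks). The window from 2000001 to 2250000 held 18 domains (22.9%) but only 14 replicate 2 peaks, and 16 of its domains were in clusters. The window from 5250001 to 5500000 also held 18 domains, with 23 replicate 2 peaks. The first 5 of these windows held 14.7% of the domains of the chromosome.

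The emptiest window, from 14500001 to 14750000, held 3 domains (5.92% of bases), beside a window with 17 on its left. Replicate 2 had 11 peaks there, 8 of them without a counterpart. The windows from 3750001 to 4000000 and from 4000001 to 4250000 held 4 domains each, covering 7.57% and 4.17% of them. Replicate 2 had 6 peaks in the first and 16 in the second, and 12 of those 16 had no counterpart. The window from 12500001 to 12750000 held 4 domains (7.22%, 6 replicate 2 peaks), and that from 1750001 to 2000000 held 5 (6.01%, 8 replicate 2 peaks), as many as the windows from 6000001 and from 10250001. In the window from 14500001 and those from 3750001 and 4000001 replicate 1 had 4 peaks each, in that from 12500001 it had 5, and in that from 1750001 it had 10. Replicate 2 was below its median of 16 peaks per window in all of these windows except those from 4000001 and 10250001, with 16 each.

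The number of domains and the bases they covered singled out different windows. Among the 5 fullest windows by count and by bases, 2 were the same. By bases the first was the window from 8000001 to 8250000, with 14 domains of median width 5079.5 bp covering 31.8%, followed by that from 11500001 to 11750000, with 14 domains of median width 3972 bp covering 31.7%. Just left of it, the window from 11250001 to 11500000 also held 14 domains, but their median width was 1266 bp and they covered 10.9%. In the window from 11500001, which holds the broadest domain of the chromosome, no domain was in a cluster, while 10 of the 14 were in the window from 11250001. The window from 10250001 to 10500000 was the poorest by bases, with 5 domains covering 3.61%, although replicate 2 had 16 peaks there that covered 17.4%.

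**Figure D4:**
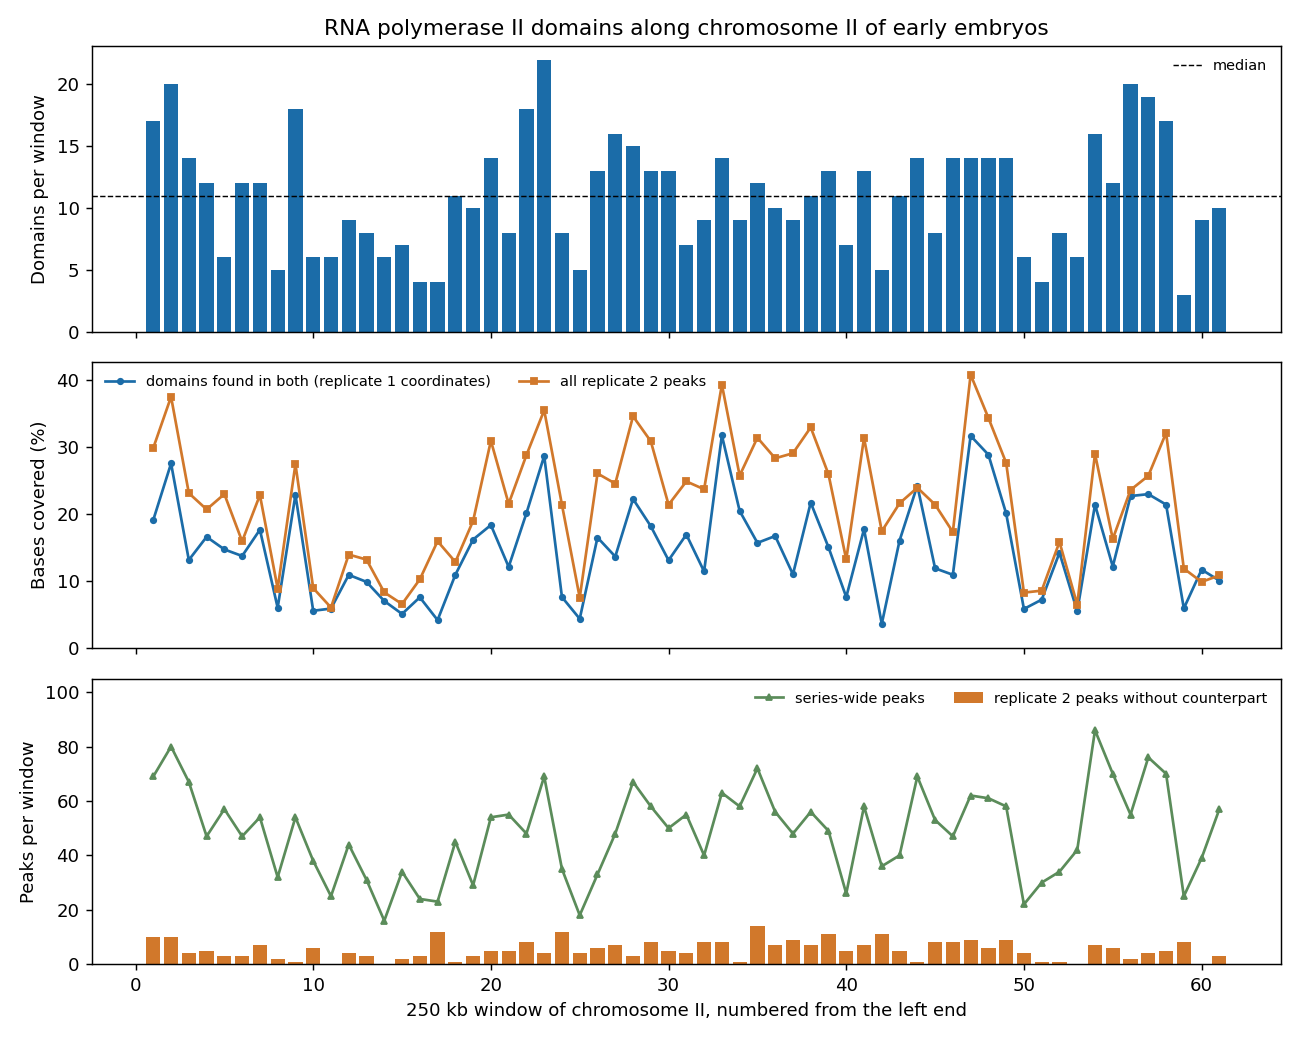
Values in the 61 complete windows of 250 kb along chromosome II, numbered from the left end. Top: domains per window, with the median of 11 dashed. Middle: percent of bases under domains (blue) and under all replicate 2 peaks (orange). Bottom: series-wide peaks per window (green line) and replicate 2 peaks without a counterpart (orange bars). Counts run from 3 to 22, and high windows stand both near the ends and in the middle.

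Windows with more domains tended to have more replicate 2 and series-wide peaks, but these lists are not independent. The domains are themselves replicate 1 peaks that met replicate 2, so part of this likeness is set by the rule. Across the 61 windows Spearman's rho between domain counts and all replicate 2 peaks was 0.77, and between domain counts and series-wide peaks 0.75. For covered bases it was 0.87 between domains and replicate 2. The extremes were shared less. Of the 5 fullest windows for domains, 2 were among the 5 fullest for replicate 2 and 2 among those for the series-wide list. The same numbers held for the 5 emptiest. Neighbouring windows were only loosely alike, with a rho of 0.22 for domain counts and 0.16 for covered bases over 60 neighbouring pairs. These values are descriptions, and neither windows nor peaks are replicates.

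Larger stretches were more even. The chromosome was cut into 4 equal stretches of 3.82 Mb, which from left to right held 41.4, 46.3, 41.9 and 46.6 domains per Mb. Covered bases were 12.8, 14.3, 16.1 and 16.2%, and median widths 2408, 2170, 2804 and 2466.5 bp. From left to right, 4, 5, 11 and 6 of the 26 domains over 10 kb lay in them, so that the stretch from 7639691 to 11459535 held 11. The share of domains in clusters was 58.9, 46.9, 47.5 and 44.9%. These differences were not tested.

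The series-wide list divided most domains into smaller peaks. Every domain met at least 1 of its peaks, and 408 (60.6%) met 2 or more. A single peak was met by 265 domains (39.4%), 2 peaks by 179 (26.6%), 3 by 100 (14.9%) and 5 or more by 65 (9.66%). The mean was 2.38 ± 1.78 (SD over 673 domains), the median 2 and the highest 15. This list is not independent of the replicates, since it comes from the same series, and which libraries entered it is not given in the sources used here. It was called with MACS v2 and the replicate lists with MACS, per the caller column of the files, and the part of the caller in the division was not tested. Its peaks covered 73.3% of the domain bases. Within a domain, neighbouring series-wide peaks were a median of 153 bp apart, 62.0% of these gaps were under 200 bp, and 24 of 931 reached 1 kb. The largest single peak took a median of 49.6% of a domain.

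Wider domains met more series-wide peaks but fewer per kilobase. Domains under 1500 bp met 1.25 on average and those of 10 kb and over met 5.85 (Spearman's rho of width and number 0.57 over 673 domains, a description). Pooled over a class, the number per kb of domain was 1.01 under 1500 bp, 0.95 from there to 3 kb, 0.73 from 3 to 5 kb, 0.54 from 5 to 10 kb and 0.45 above. The share of bases under series-wide peaks ran the other way, with 58.8% in the narrowest class and 85.1% in the broadest. Every domain met at least 1 peak, and any overlap counted. This way of counting by itself raises the number per kb in the narrow classes.

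The 5 widest domains and the 5 with most series-wide peaks had none in common, though all of them were over 10 kb. The widest, from 11613312 to 11638510, met 2 series-wide peaks that covered 96.7% of it. The larger of these ran from 11613590 to 11630752 and was the widest series-wide peak of the chromosome (17163 bp). The domain from 2994634 to 3012530 met 3 peaks (96.0% covered), that from 9294063 to 9309346 met 5 (95.9%), that from 13815444 to 13830052 met 1 (92.5%) and that from 12786561 to 12800579 met 7 (84.9%). The first 4 of these were thus nearly filled by 5 or fewer peaks.

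The most divided domain ran from 8456640 to 8469359 (12720 bp) and met 15 series-wide peaks, the largest of which took 16.2% of it. The domain from 8650863 to 8661234 (10372 bp) met 13. The domains from 1124746 to 1135631 (10886 bp), from 7046094 to 7058105 (12012 bp) and from 10929742 to 10942686 (12945 bp) met 10 each. Series-wide peaks covered between 72.2 and 82.2% of these 5 domains. Replicate 2 also divided 4 of them, into 3 peaks for that from 10929742 and 2 peaks for each of the others, while that from 8650863 met a single replicate 2 peak. Among the 26 domains over 10 kb, 9 met 3 or fewer series-wide peaks, with a median of 95.5% of their bases covered, 7 met 4 to 7, and 10 met 8 or more, with a median of 75.0% covered.

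**Figure D5:**
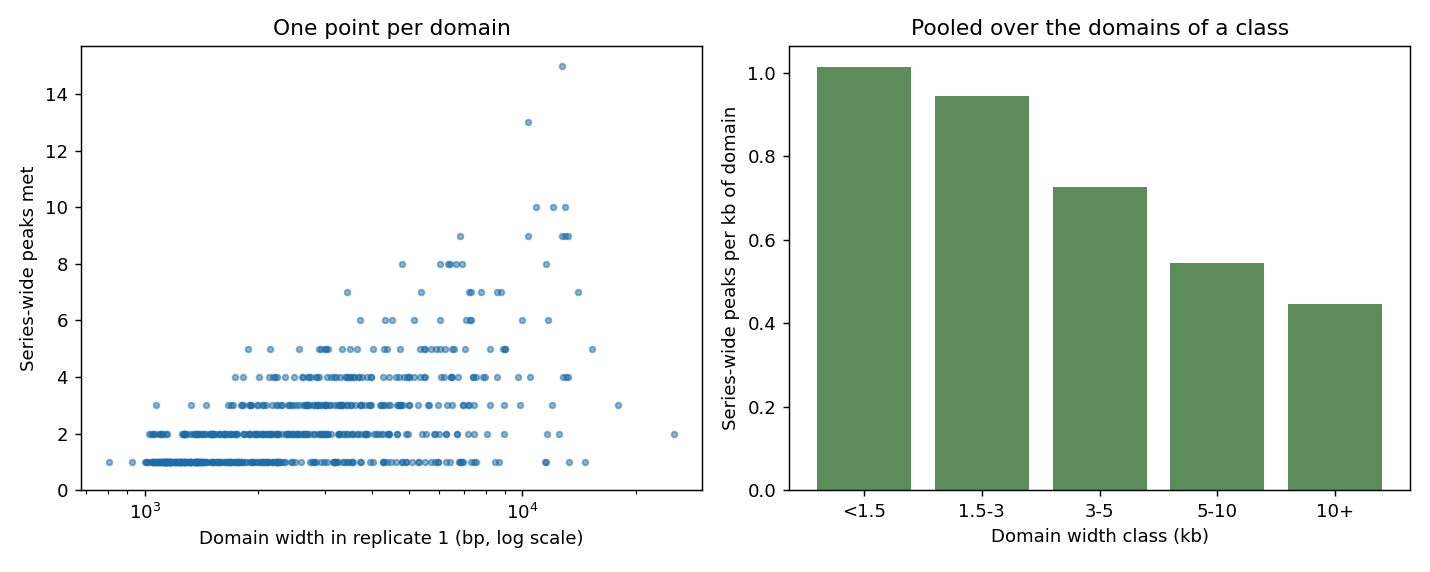
Left: number of series-wide peaks met by each of the 673 domains against its width in replicate 1 (bp, log scale). Right: series-wide peaks per kb of domain in 5 width classes. The number per domain reaches 15, the number per kb is 1.01 in the narrowest class and 0.45 in the broadest, and the widest domain (25199 bp) meets only 2. Each domain meets at least 1 peak, which by itself raises the number per kb of narrow domains.

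Along the chromosome the division of domains varied by window. Windows had between 1.29 and 4.86 series-wide peaks per domain with a median of 2.27. The highest was the window from 7500001 to 7750000, with 7 domains of median width 6040 bp, and the lowest that from 11250001 to 11500000, with 14 domains of median width 1266 bp. Both were chosen after their values were seen. Across the 61 windows Spearman's rho between the number of series-wide peaks per domain and the number of domains was 0.04. Of the 2979 series-wide peaks, 1590 (53.4%) met a domain, and these had a median width of 591.5 bp. Only 14 of them met 2 domains. A further 783 (26.3%) met no domain but a replicate 2 peak, and 171 (5.74%) met a replicate 1 peak without a counterpart, with median widths of 297 and 312 bp.

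The replicate peaks that did not become domains had lower median widths, but some were as wide as the broad domains. The 76 replicate 1 peaks without a counterpart had a median width of 1526 bp and the 326 replicate 2 peaks a median of 1491.5 bp, against 3076.5 bp for the 612 replicate 2 peaks with one. Of the 76, 39 (51.3%) were less than 5 kb from a domain, as were 153 of the 326 (46.9%). Neighbouring domains were themselves a median of 5768.5 bp apart, so these shares are not read as a gathering near domains. The widest exception was a replicate 1 peak from 10988536 to 11013643. It was 25108 bp wide, nearly as wide as the broadest domain, 96.9% of it lay under 3 series-wide peaks, and the nearest replicate 2 peak was 12842 bp away. The next replicate 1 peaks without a counterpart ran from 13015728 to 13026684 (10957 bp), from 4695215 to 4704534 (9320 bp), from 11297988 to 11306604 (8617 bp) and from 8774591 to 8782955 (8365 bp).

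In replicate 2 the widest peak without a counterpart ran from 6830618 to 6849386 (18769 bp) and met 6 series-wide peaks that covered 86.0% of it. The next ran from 539957 to 553568 (13612 bp), 350 bp from the nearest domain, and from 14356299 to 14368798 (12500 bp). Those from 1232582 to 1244025 (11444 bp) and from 8745730 to 8756308 (10579 bp) were less filled, with 16.7% and 32.4% of their bases under series-wide peaks. At least 1 series-wide peak met 72 of the 76 replicate 1 peaks and 285 of the 326 replicate 2 peaks without a counterpart. By window, replicate 2 had between 0 and 14 such peaks (median 5) and replicate 1 between 0 and 6 (median 1). Spearman's rho between domains and replicate 2 peaks without a counterpart was 0.22 over 61 windows.

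Set beside the 2 chromosomes closest to it in size, II carried fewer domains. It had 44.0 domains per Mb, against 52.1 on I and 54.7 on III, and a median gap of 5768.5 bp, against 4500 bp on I and 3913 bp on III. The longer chromosomes IV, V and X had fewer per Mb than II, at 38.1, 25.2 and 25.1. Median widths were 2432 bp on II, 2326 bp on I and 2307.5 bp on III. Clusters held 49.3% of the domains on II, 52.4% on I and 56.0% on III. The mean number of series-wide peaks per domain was 2.38 on II, 2.48 on I and 2.62 on III. The longest gap was 192921 bp on II, 266885 bp on I and 198199 bp on III, and domains per window ran from 3 to 22 on II, from 1 to 27 on I and from 3 to 27 on III. With 2 replicates of a single group none of these differences was tested, and none is given as particular to chromosome II.

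The first domain ran from 24288 to 25420 and the last from 15272479 to 15275746, so domains reached close to both ends. The last was 3268 bp wide in replicate 1 and belonged to a replicate 2 peak of 11293 bp that began at 15264361. Past the last complete window, the remaining stretch of 15250001 to 15279380 held 3 domains, all in a cluster.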

How the data were processed

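Peak lists of the 2 immunoprecipitated samples, and a list for the whole series, were used. The submitters' processing notes name BWA and the ce10 build. Peaks were called with MACS for each sample and with MACS v2 for the series, and positions are in WormBase WS220, per the file headers and caller column. The sources used here give no settings, filters, control or read depth. First and last bases were used as deposited by the authors. Scores were not used.

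Lists were read with Python 3.11.15 and numpy 2.4.6, rank correlations and exact intervals came from scipy 1.17.1, and figures from matplotlib 3.10.9. No filter on width was applied. A series-wide peak was given to a domain that it overlapped by at least 1 bp. The interval functions were tested on simulated lists. Regions were named by rank: the 5 widest and 3 narrowest domains, the 5 met by most series-wide peaks, the first and last, the 5 longest gaps, the 5 largest clusters, the 5 fullest and 5 emptiest windows, the 3 cases of most joining and of most splitting (ties in the order of the chromosome, also for windows), the 5 widest peaks of each replicate without a counterpart, and 3 on each side of the overlap limit. Other regions were named after their values were seen. The domains, lists and rules were chosen with earlier results of these data known. Genes and sequences are not given, since gene positions were at hand for WBcel235 only.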

Additional observations from a re-analysis of the deposited data

How the results depend on the processing

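No paired analysis was possible because only the immunoprecipitated samples had peak lists here and no test was made. Each value was recomputed with other settings, and a value counted as moved when it differed by more than the SD between the full replicate lists, or a count by more than 1.5 times: 37 of 74 values moved. That SD rests on 2 values, and the same 2 lists were among the settings scored, so the tally is no measure of robustness. The causes were not tested, beyond what each setting does by construction. With each peak covering at least 50% of the other, the median width was 2746 bp, the median gap 11578.5 bp, clusters 36, domains in clusters 26.3%, series-wide peaks per domain 2.50, domains met by 2 or more 63.7%, the window median 7 and the variance to mean ratio 1.57. In replicate 2 coordinates the width was 3076.5 bp, the gap 7413 bp, series-wide peaks per domain 2.96, domains met by 2 or more 69.8% and the ratio 1.62. With domains under 200 bp apart joined, these were 2617 bp, 7313 bp, 2.56, 63.0% and 1.71, with 42.5% in clusters. Each replicate list alone gave 749 to 938 peaks, 16.1 to 21.6% of bases, widths of 2257 to 2341 bp, gaps of 3789 to 4824.5 bp, 94 to 136 clusters with 51.8 to 59.3% of peaks, 2.37 to 2.46 series-wide peaks each, 57.6 to 60.3% met by 2 or more, window medians of 13 to 16 and ratios of 1.92 to 2.08. A cluster gap of 2 kb gave 47 clusters with 25.9% of domains, and 10 kb gave 65.1% of domains. Windows of 500 kb had a median of 22 and a ratio of 2.15. Series-wide peaks assigned by midpoint gave 2.28 per domain and 57.7% met by 2 or more. Shifted window starts and a minimum width of 1 kb moved no value. The median border offset was between 178 and 181 bp where it could be computed; it has no SD between lists and was set against the SD over borders, 945 bp, so its 4 alternatives, counted among the 74, could hardly move.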

Other observations

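The series-wide list held 435 peaks on chromosome II (14.6% of its 2979) that met no peak of either replicate. They were short, with a median width of 221 bp, and 168 of them (38.6%) lay less than 1 kb from a replicate peak. The 3 widest ran from 8288347 to 8292704 (4358 bp), from 11662463 to 11665589 (3127 bp) and from 11666408 to 11668848 (2441 bp). Windows of 250 kb held between 0 and 25 of them, with a median of 6. The most were in the adjoining windows from 13250001 to 13500000 (25 peaks) and from 13500001 to 13750000 (23 peaks), which held 16 and 12 domains. Across the 61 windows Spearman's rho between their number and that of the domains was -0.02, a description.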
